A study of Mus musculus with 18 samples.

Results

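High-fat diet livers (HFD) were compared with control livers (Con) over the whole transcriptome. The 6 livers, 3 of each diet, were taken by their labels from the 18 livers of the series, and 10507 of the 19057 lines of the expression table were tested, those with an RPKM (read numbers scaled by gene length and by the mapped reads of the library) of at least 1 in at least 3 of the 18 livers. All mice were ICR males, an outbred stock, labelled as 10 weeks old. Con mice received the regular diet with saline and HFD mice a high-fat diet with saline. A second pair of groups carried the same change of diet with alginate oligosaccharide (AOS) at 10 mg/kg by their labels, on the regular diet (AOS) or with the high-fat diet (HFD+AOS), 3 livers each, and the 6 livers left were from mice on the high-fat diet that received gut microbiota. The study asked how a high-fat diet affects male mice, and what the gut microbiota of AOS-dosed donors does under it.

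The liver takes up fatty acids, burns them in mitochondria and peroxisomes, turns the surplus of acetyl units into ketone bodies, and builds new fatty acids when carbohydrate is plentiful. Fatty acids bind the nuclear receptor PPAR-alpha, which switches on genes of oxidation and ketogenesis, while SREBP1c and ChREBP drive lipogenesis. Hepatocytes also make the acute phase proteins, such as serum amyloid A, which rise steeply in inflammation under interleukin 6 and interleukin 1.

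The RPKM of the 6 livers summed to between 715841 and 806937, between 14707 and 14812 genes were above 0, and the 10 most abundant genes held 30.7% to 39.0% of the RPKM. The 11 hepatocyte markers summed to an RPKM of 60454.8 to 75926.4 in Con and 67560 to 79243.9 in HFD livers, and albumin (Alb) was at 24367.09 to 41363.29 in all 6, as in liver. Adipocyte markers summed to at most 0.24.

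The 3 Con libraries did not behave as 3 unrelated livers. Over the 148 genes whose levels differed most between Con 1 and Con 2, Con 3 lay between them for 98.0%, and came nearest to 0.54 of Con 1 plus 0.46 of Con 2, with a median absolute log2 difference of 0.0665. AOS 3 lay likewise between AOS 1 and AOS 2 (96.5% of 142 genes), while in the other 4 groups the share was 58.1% to 76.8% and the difference 0.341 to 0.590. The beta-globins, which come as alternative haplotypes in mice, showed the same in genes of another cell, the erythrocyte. Hbb-bs was at an RPKM of 0.85 in Con 1, 220.2 in Con 2 and 91.85 in Con 3, against 102 for the weighted mean of the first 2. How Con 3 came to lie there was not tested. At most 2 Con libraries can be taken as independent, so an SE or SD given with n = 3 may understate the spread in Con. The comparison was therefore repeated without the third Con and the third AOS libraries. There the log2 fold changes of the genes named here kept their signs and moved by at most 0.065 for the 31 genes called higher, 0.48 for the 9 called lower (Lcn2) and 0.44 for the others (Orm2). The medians of the 40 gene lists moved by at most 0.083, and 2 of them changed sign. Since Con 3 lay near a mean of Con 1 and Con 2, its removal could move the Con mean little. The small moves are therefore no test of the results. As a choice made after the data were seen, Con 1 or Con 2 was also taken as the only Con liver, a single liver assumed to vary like those of the other groups. The labels do not say that the livers of a group came from separate cages or days, so that p values measure only the spread between these samples.

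**Figure D1:**
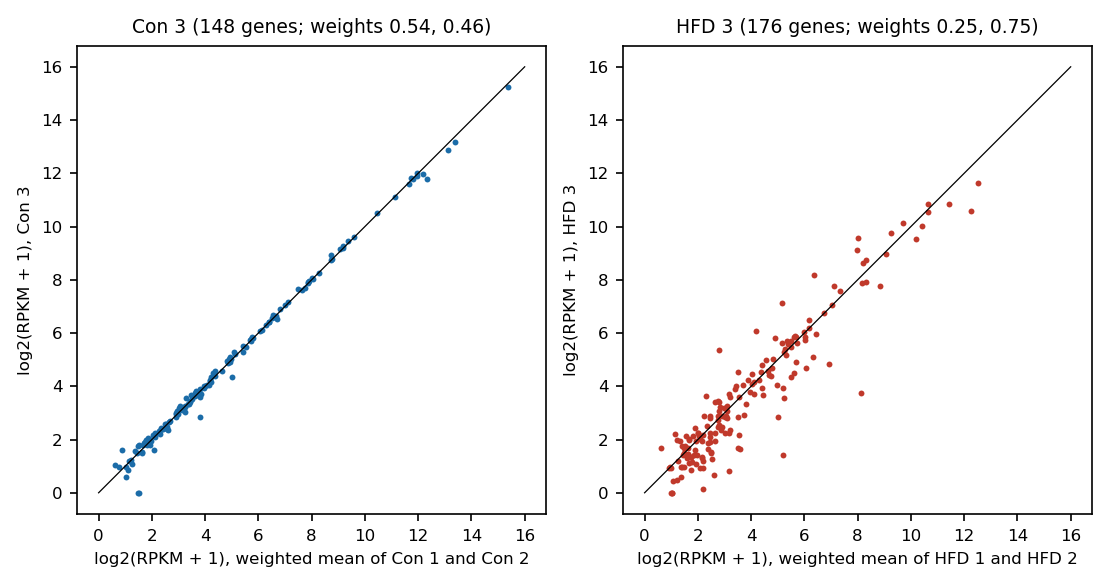
Each point is a gene that differs strongly between replicates 1 and 2 of its group, with log2(RPKM + 1) of replicate 3 on the y axis and the best weighted mean of replicates 1 and 2 on the x axis, for Con (148 genes, left) and HFD (176 genes, right); the line marks equal values. The points of Con 3 lie along the line, and those of HFD 3 scatter around it.

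The test across all genes called 40 genes (0.381% of those tested, limma adjusted p under 0.05), 31 of them higher (0.295%) and 9 lower (0.0857%) in HFD livers. With each library's median set equal, the split was 24 higher and 23 lower. An unadjusted p under 0.05 was reached by 1623 genes (15.4%), 1219 of them higher (11.6%) and 404 lower (3.85%). The higher genes held fatty acid oxidation enzymes, sterol and bile transporters and secreted regulators, and most moved little, with a ratio of the mean RPKM from 1.30 to 12.1 (median 1.52) and 3 of 31 at 2-fold or more. The lower genes moved farther, from 1.57-fold to 84.7-fold lower (median 7.0), with 7 of 9 at 2-fold or more. In all 31 and all 9 the 3 HFD livers did not overlap with the 3 Con livers, which 18.5% of all genes tested also reached in either direction.

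The calls rested on which Con libraries entered. Without the third Con and AOS libraries, 0 genes passed with limma at an adjusted p under 0.05, although 1076 had an unadjusted p under 0.05. All 40 kept an unadjusted p under 0.05 there, the largest 0.00192, with adjusted p from 0.167 to 0.315. These 40 were picked for the smallest p in a fit that shares all the remaining libraries, so this is no separate support. Con 1 and Con 2 did not contribute alike. Con 1 was below Con 2 in 24 of the 31 higher genes and above it in 9 of the 9 lower genes, so that Con 1 was the Con liver farther from HFD in most of them. The share over all genes tested was not counted. Con 1 also had a lower library median on the log2 scale (2.89) than Con 2 (3.00). The 24 of 31 is thus not shown to be particular to the called genes. With Con 2 as the only Con liver, the median log2 fold change of the higher genes was 0.42 in place of 0.54. That of the lower genes was -1.23 in place of -1.51. The direction of all 40 was fixed there in advance, since in none did an HFD liver overlap with a Con liver. Each library weighed on the count: limma called 0 genes without Con 1 (1100 at an unadjusted p under 0.05) and 0 without Con 3 (1186), 178 without Con 2, and 16, 9 and 17 without HFD 1, 2 and 3.

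**Figure D2:**
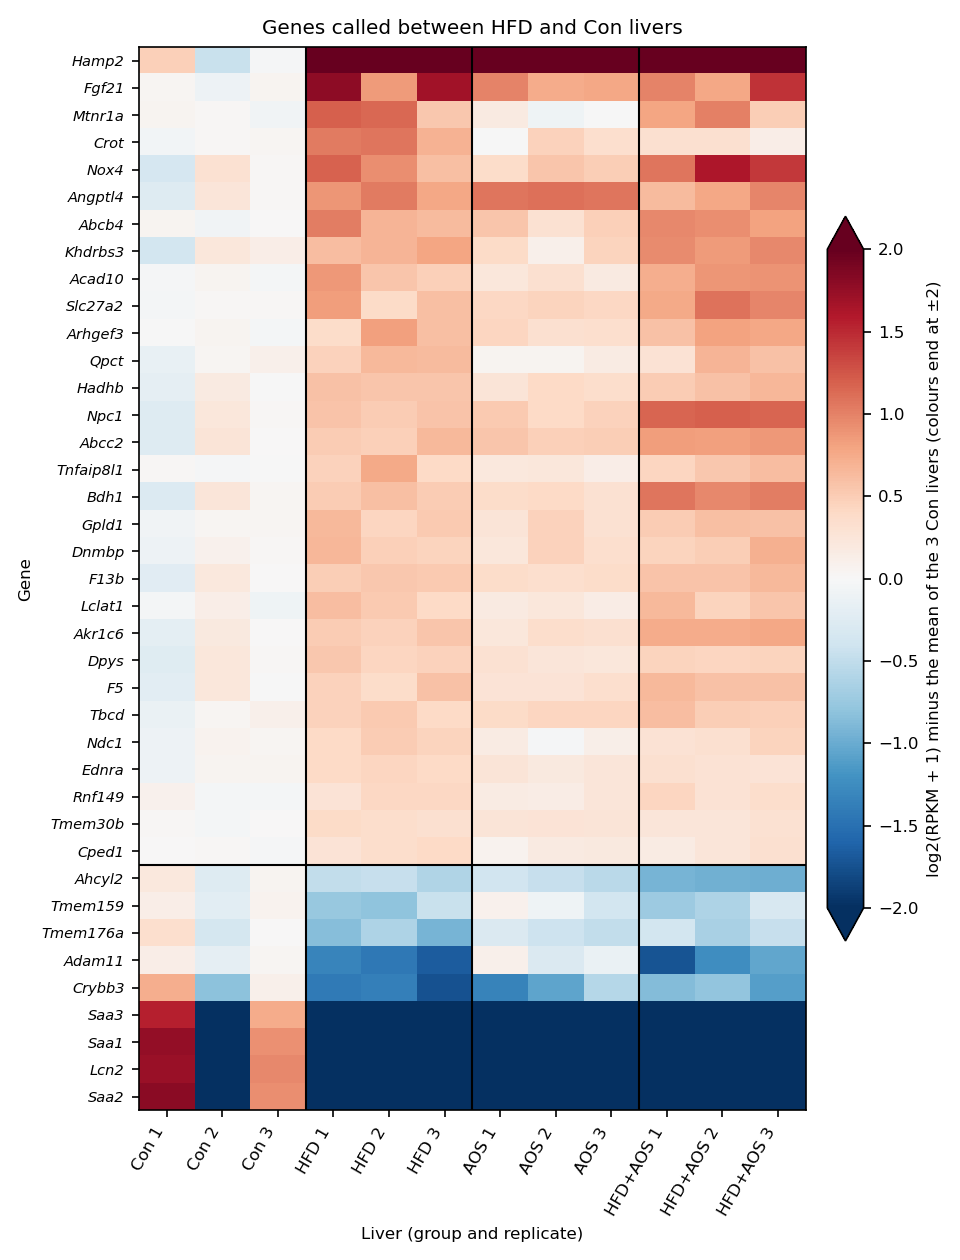
Rows are the genes called between HFD and Con that the text names and columns the livers of 4 groups; colour gives log2(RPKM + 1) minus the mean of the 3 Con livers, ending at plus and minus 2, and black lines part the groups and the genes called higher from those called lower. For Saa1, Saa2, Saa3 and Lcn2 Con 2 is as blue as the HFD livers while Con 1 and Con 3 are red, since all values from -2 down share a colour, and for Hamp2 all livers other than Con are deep red.

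Enzymes of fatty acid oxidation were among the genes that rose. Hadhb, which encodes the beta chain of the enzyme complex that carries out the last steps of long-chain beta-oxidation in mitochondria, was at an RPKM of 58.72, 75.54 and 65.7 in Con 1, 2 and 3 and at 99.58, 97.9 and 98.15 in HFD 1, 2 and 3. All HFD livers were above all Con livers and within 2 RPKM of each other. Hadhb rose by 0.56 ± 0.08 on the log2(RPKM + 1) scale, on which all fold changes here are given and which understates those of low genes (SE, n = 3 against 3, limma adjusted p = 0.0175, and 0.194 without the third Con and AOS libraries). Hadha, which encodes the alpha subunit and lies head to head with Hadhb on chromosome 5, was at 56.12, 80.69 and 71.42 in Con and 93.26, 89.8 and 90.85 in HFD livers, a difference of 0.41 (adjusted p = 0.0861). These genes are set 85 bases apart at their 5′ ends in GENCODE (Hadha chr5:30118304-30155162, minus strand; Hadhb chr5:30155248-30184593, plus strand; GRCm38). By the RefSeq starts 272 bases lie between them, so the stretch shown is only part of the region between the starts. It is given on the plus strand (chr5:30155163-30155247, RefSeq GRCm38.p6).

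Hadhb: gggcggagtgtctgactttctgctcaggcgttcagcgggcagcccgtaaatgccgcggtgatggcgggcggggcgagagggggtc

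Of the 23 mitochondrial beta-oxidation genes tested, 22 were higher (62.5% of all genes tested were), 10 did not overlap with Con (43.5%, against 13.8% of all genes tested) and 2 passed the test (0.295% of all genes tested were called higher). The median log2 fold change of the list was 0.31, beside 0.05 over all genes tested, and 0.10 with Con 2 as the only Con liver. The other member that rose was Acad10, an acyl-CoA dehydrogenase family member, at 8.72, 9.33 and 8.66 in Con and 17.15, 13.5 and 12.73 in HFD livers (0.63 ± 0.11, adjusted p = 0.0283). Here the Con livers were alike and HFD 1 was the highest. Cpt1a, which controls the entry of long-chain fatty acids into mitochondria, was at 39.91, 42.94 and 40.46 in Con and 75.59, 51.96 and 56.94 in HFD livers (0.55 ± 0.13, adjusted p = 0.0748).

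Outside the mitochondria, 26 of 28 peroxisomal genes were higher (62.5% of all genes tested were), with a median of 0.21 (0.062 with Con 2 alone). Of the 28, 1 was called (0.295% of all genes tested were called higher). It was Crot, carnitine O-octanoyltransferase, which passes medium-chain acyl groups from peroxisomes to mitochondria. Its RPKM was 149.66, 156.61 and 158.34 in Con and 319.2, 324.78 and 251.12 in HFD livers. Crot rose by 0.93 ± 0.18 (adjusted p = 0.0352), 1.93-fold in mean RPKM, with no overlap and little spread in Con. Slc27a2, a very long-chain fatty acid transporter and acyl-CoA synthetase, was the member of 19 uptake and activation genes that passed, at 236.89, 248.25 and 248.14 in Con and 436.3, 319.55 and 369.96 in HFD livers (0.61 ± 0.11, adjusted p = 0.0317). The plasma membrane transporter Cd36, in contrast, was at a mean of 2.17 ± 0.303 in Con and 2.53 ± 0.172 in HFD livers (SD, n = 3 each) and was not called (adjusted p = 0.718). Lpl, which frees fatty acids from circulating triglyceride, was at 9.22, 12.05 and 10.72 in Con and lower in every HFD liver, at 4.23, 5.77 and 6.52 (-0.85, adjusted p = 0.0985).

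A pair of omega-hydroxylase genes had large differences that did not pass in the main fit. Cyp4a14, a classic PPAR-alpha target, was at 0.2, 0.57 and 0.55 in Con and 12.69, 10.61 and 17.07 in HFD livers, a 30.6-fold ratio of means. The log2 fold change was 3.31 ± 0.77 with an adjusted p of 0.0803, in a fit that takes the spread of this gene from all 6 groups. Its neighbour Cyp4a10, 22121 bases away on chromosome 4, was at 1.29, 2.76 and 2.77 in Con and 36.72, 15.42 and 11.64 in HFD livers (2.64 ± 0.70, adjusted p = 0.111). In both genes every HFD liver was above every Con liver. Cyp4a10 shares 41.0% of its 35-base words with other genes of its family and Cyp4a14 none, so that Cyp4a10 may hold reads of other members. In the omega-hydroxylation list 9 of 11 genes were higher and 0 passed (median 0.33, and -0.0087 with Con 2 alone).

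Of 8 ketone body genes 7 were higher, with a median of 0.43, and of 0.17 with Con 2 alone. Bdh1, the mitochondrial enzyme that makes beta-hydroxybutyrate from acetoacetate, was called. It was at 49.91, 71.89 and 62.77 in Con and at 87.04, 92.96 and 86.65 in HFD livers (0.54 ± 0.10, adjusted p = 0.0352). The HFD livers were close together and Con 1 was the lowest of all 6. Ppara itself was at 12.01, 19.54 and 16.97 in Con and 23.35, 21.33 and 17.19 in HFD livers, overlapping, with an adjusted p of 0.257.

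**Figure D3:**
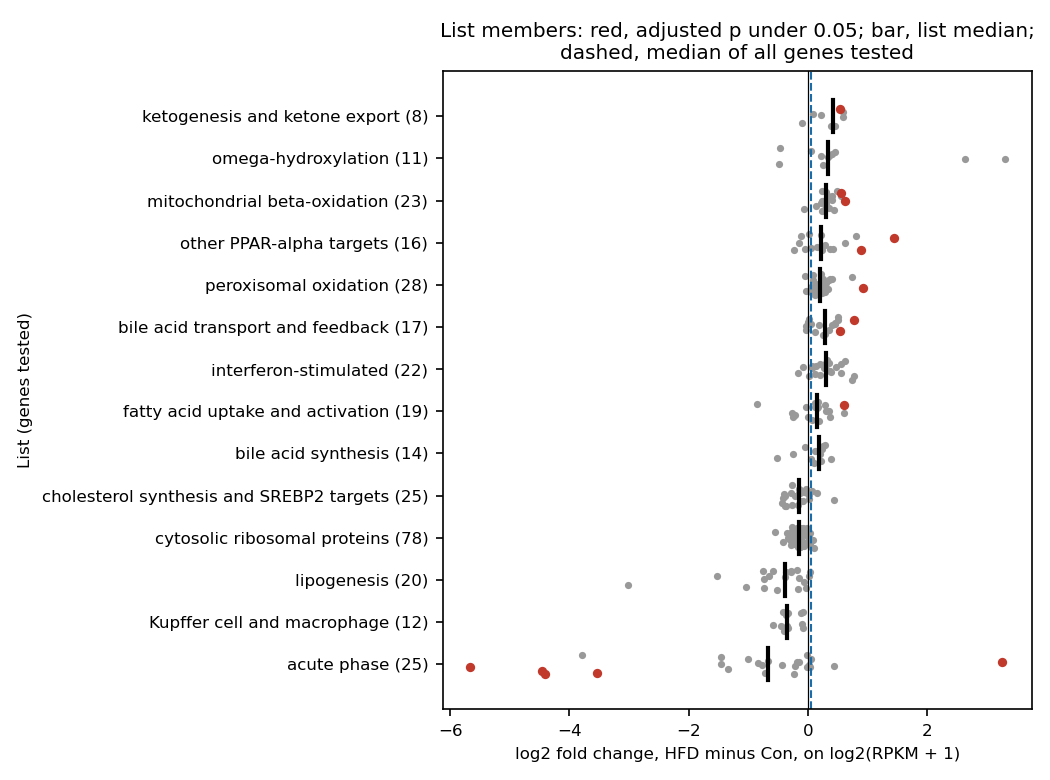
Each point is a gene of a list, with its log2 fold change between HFD and Con on the x axis and the list, with the number of its genes tested, on the y axis; red points passed the test, black bars are list medians and the dashed line is the median over all genes tested. The medians of the oxidation and ketogenesis lists lie to the right of the dashed line, and lipogenesis, Kupffer cell and acute phase genes to the left.

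Among secreted factors, Fgf21 and Angptl4 rose, both known targets of PPAR-alpha. Fgf21, a hormone of the liver in fasting and nutrient stress, was at 0.98, 0.78 and 1 in Con and at 5.64, 2.46 and 5.15 in HFD livers. The groups did not overlap and HFD 2 was the lowest of its group. Fgf21 rose by 1.44 ± 0.25 (adjusted p = 0.0283), which is 4.8-fold in mean RPKM and, with Con 2 alone, 1.55 on the log2 scale. Angptl4, an inhibitor of lipoprotein lipase, was at 17.31, 25.04 and 21.28 in Con and 39.36, 44.21 and 36.48 in HFD livers (0.90 ± 0.14, adjusted p = 0.024). Of 16 hepatokine genes 11 were higher, near the 62.5% of all genes tested, and the 2 called (0.295% of all genes tested were called higher) were Fgf21 and Angptl4. The list median was 0.28 (0.13 with Con 2 alone).

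Hamp2, a paralogue of the iron hormone hepcidin, rose the most of the 31, from 6.5, 2.96 and 4.32 in Con to 42.62, 90.49 and 33.71 in HFD livers. The lowest HFD liver was above the highest Con liver by more than 5-fold. The difference was 3.26 ± 0.52 (adjusted p = 0.024), 12.1-fold in mean RPKM. Hamp2 shares 20.4% of its 35-base words with Hamp, and the alignment settings of the study report every hit of a read, so reads of Hamp could have counted for Hamp2.

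Transporters of sterol and bile also rose. Npc1, which moves cholesterol out of lysosomes, was at 12.52, 17.96 and 15.38 in Con and 23, 21.99 and 22.89 in HFD livers (0.55 ± 0.09, adjusted p = 0.0283). Abcb4, which moves phosphatidylcholine into bile, was at 36, 32.97 and 34.73 in Con and 71.09, 55.98 and 54.03 in HFD livers (0.78 ± 0.14, adjusted p = 0.0352). Its gene ends 6801 bases from Crot on chromosome 5. Abcc2, the canalicular exporter of conjugated bilirubin and drugs, was at 20.01, 28.76 and 24.04 in Con and 34.63, 33.71 and 38.01 in HFD livers (0.54 ± 0.11, adjusted p = 0.0414). In these 3 genes no HFD liver overlapped with a Con liver. Of the 17 bile acid transport and feedback genes 15 were higher and 7 did not overlap (41.2%, against 13.8% of all genes tested), with a median of 0.30 and of 0.11 with Con 2 alone. The basolateral uptake carrier Slco1b2 missed the threshold, at 187.88 to 192.64 in Con and 235.66 to 274.69 in HFD livers (0.40, adjusted p = 0.0517).

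Of 14 bile acid synthesis genes 11 were higher and 0 passed, with a median of 0.19 (0.058 with Con 2 alone). Cyp7a1, its rate-limiting enzyme, was at 30.72, 24.27 and 27.53 in Con and spread from 8.63 over 20.29 to 66.7 in HFD livers, and its fold change turned positive (0.42) without HFD 1. The bile acid receptor gene Nr1h4, which encodes FXR, was at a mean of 59.5 ± 5.58 in Con and 65.1 ± 7.54 in HFD livers (SD, n = 3 each, adjusted p = 0.598).

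The other genes that rose had varied roles. Nox4, a hydrogen peroxide producing oxidase, was at 5.07, 8.48 and 6.78 in Con and 16.25, 13.61 and 10.65 in HFD livers (0.90 ± 0.16, adjusted p = 0.0338). Mtnr1a, a melatonin receptor, was at 0.77 to 0.93 in Con and at 3.28, 3.14 and 1.72 in HFD livers (0.97 ± 0.19, adjusted p = 0.0362). Akr1c6, a hydroxysteroid dehydrogenase, rose by 0.51 (adjusted p = 0.0498). The coagulation genes F13b and F5 rose by 0.52 and 0.47, and Gpld1, a phospholipase that cuts GPI anchors and circulates in plasma, by 0.53. Of the others, Khdrbs3, Qpct, Lclat1, Arhgef3, Tbcd, Tmem30b, Rnf149, Ndc1, Cped1, Ednra, Dnmbp, Tnfaip8l1 and Dpys, rose by 0.34 (Cped1) to 0.69 (Khdrbs3).

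Adam11 fell with the smallest p of all genes. This member of the ADAM family without protease activity, known mainly from the nervous system, lies on chromosome 11 (chr11:102761439-102780262, plus strand, GRCm38). It was at 11.31, 8.94 and 10.58 in Con and 3.48, 3.16 and 2.55 in HFD livers, with a gap between the groups larger than the spread within either. It fell by 1.47 ± 0.19 on the log2 scale (adjusted p = 0.00745, 0.167 without the third Con and AOS libraries) and by 1.30 with Con 2 alone. Tmem159, a lipid droplet protein gene, fell from 1.57, 1.03 and 1.45 to 0.38, 0.34 and 0.71 (adjusted p = 0.046), and Ahcyl2, related to S-adenosylhomocysteine hydrolase, from 6.75, 4.63 and 5.99 to 3.78, 3.88 and 3.42 (adjusted p = 0.046). Tmem176a and Crybb3 fell by 0.80 and 1.51 (adjusted p = 0.0352 and 0.0379), and in both Con 1 was the highest liver. Tmem176a was at 317.01, 194.97 and 252.4 in Con and 137.81, 162.84 and 130.94 in HFD livers. Crybb3 was at 6.18, 1.45 and 3.64 in Con and 0.63, 0.68 and 0.3 in HFD livers. With Con 2 alone the falls were 0.44 for Tmem176a and 0.68 for Crybb3.

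The largest falls were those of acute phase genes, and they followed the level of Con 1. Saa1 and Saa2, the serum amyloid A genes of the acute phase, lie 8809 bases apart on chromosome 7 in opposite directions. Their upstream sequences are shown because the genes moved together, from 200 to 44 bases before the RefSeq start of each gene, which for Saa2 lies inside the longer GENCODE gene, 5′ to 3′ on the strand of the gene and outside annotated exons (Saa1 chr7:46743024-46743180, minus strand; Saa2 chr7:46751633-46751789, plus strand; RefSeq GRCm38.p6). Capitals mark the motif TTGCNNAA, the core that C/EBP factors bind.

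Saa1: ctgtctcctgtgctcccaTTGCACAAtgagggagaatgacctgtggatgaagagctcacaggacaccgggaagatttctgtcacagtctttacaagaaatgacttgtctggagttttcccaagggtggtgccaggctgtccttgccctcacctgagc
Saa2: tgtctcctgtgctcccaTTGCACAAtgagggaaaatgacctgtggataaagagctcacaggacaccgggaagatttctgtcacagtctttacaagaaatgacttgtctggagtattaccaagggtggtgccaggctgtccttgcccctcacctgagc

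The windows were identical at 152 of 158 aligned positions (96.2%). The motif was chosen after the data were seen and searched on both strands of RefSeq's promoter windows, which run across each gene's start. It was in 10.8% of 32851 promoters, in 12 of 22 acute phase genes and in 3 of 25 genes called higher. Of the 7 genes called lower that had a promoter in RefSeq, 5 held it (Saa1, Saa2, Saa3, Lcn2 and Crybb3). All of these but Crybb3 are also among the 12, and the Saa1 and Saa2 windows are near copies, so the counts are not independent. Whether the motif bears on the falls was not tested. Of the other motifs searched, the STAT form TTCNNNGAA was in 8.30% of promoters, 0 of the 7, 7 of the 22 and 4 of the 25, and a 10-base NF-kappa-B form in 1.63% of promoters, 1 of the 7, 3 of the 22 and 1 of the 25. A peroxisome proliferator element in a loose form, 2 copies of AGGNCA spaced by 1 base, was in 0.381% of promoters and in 0 of the 65 oxidation and PPAR-alpha target genes with a promoter. At so low a share a count of 0 among 65 is the usual outcome, so it says nothing about these genes.

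Saa2 was at 7017.93 in Con 1, 300.04 in Con 2 and 3825.52 in Con 3, and at 29.06, 77.97 and 24.54 in HFD livers. Saa1 was at 6421.65, 296.14 and 3569.84 in Con and at 100.36, 155.55 and 43.18 in HFD livers. Con 1 was more than 20-fold above Con 2 in both, and Con 2 was still above all HFD livers. Saa2 fell by 5.67 ± 0.84 and Saa1 by 4.42 ± 0.84 (adjusted p = 0.0175 and 0.0352), and with Con 2 alone by 2.94 and 1.74, a value from a single Con liver. Because Saa1 and Saa2 share 42.7% and 40.4% of their 35-base words with other transcripts, their reads cannot be fully parted. Saa3, which shares 1.00%, was at 344.16, 22.61 and 195.31 in Con and 10.32, 8.12 and 8.98 in HFD livers (-3.53 ± 0.62, adjusted p = 0.0296, and -1.23 with Con 2 alone).

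Lcn2, lipocalin 2, which binds bacterial iron carriers, was at 1043.15, 47.53 and 612.28 in Con and 9.36, 38.81 and 6.12 in HFD livers (-4.46 ± 0.90, adjusted p = 0.0448). Con 2 and HFD 2 were close, and with Con 2 alone the difference was -1.76. Orm2, an alpha-1 acid glycoprotein gene, had overlapping groups, at 762.39, 39.77 and 441.09 in Con and 8.72, 45.37 and 10.72 in HFD livers (-3.78, adjusted p = 0.0528). Metallothionein Mt1 was at 736.22, 58.15 and 493.15 in Con and 19.66, 48.17 and 47.71 in HFD livers (-2.92, adjusted p = 0.114).

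Of 25 acute phase genes 20 were lower, 4 called lower (the 3 Saa genes and Lcn2) and 1 higher (Hamp2), with a median of -0.67. Of all genes tested 62.5% were higher, 0.0857% were called lower and 0.295% called higher. In 24 of the 25 Con 1 was above Con 2, in 15 by 2-fold or more, and in all 25 Con 3 lay between them. Shares over all genes were not counted for these. The list median was -0.30 without Con 1 and 0.07 with Con 2 alone, so its direction rested on Con 1 and on the library that lay between it and Con 2. The 6 neutrophil markers had a summed RPKM of 3.35 to 10.51 in Con and 2.48 to 3.69 in HFD livers, with 2 of the 6 high enough to be tested and 0 called, and their part in the result was not tested.

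**Figure D4:**
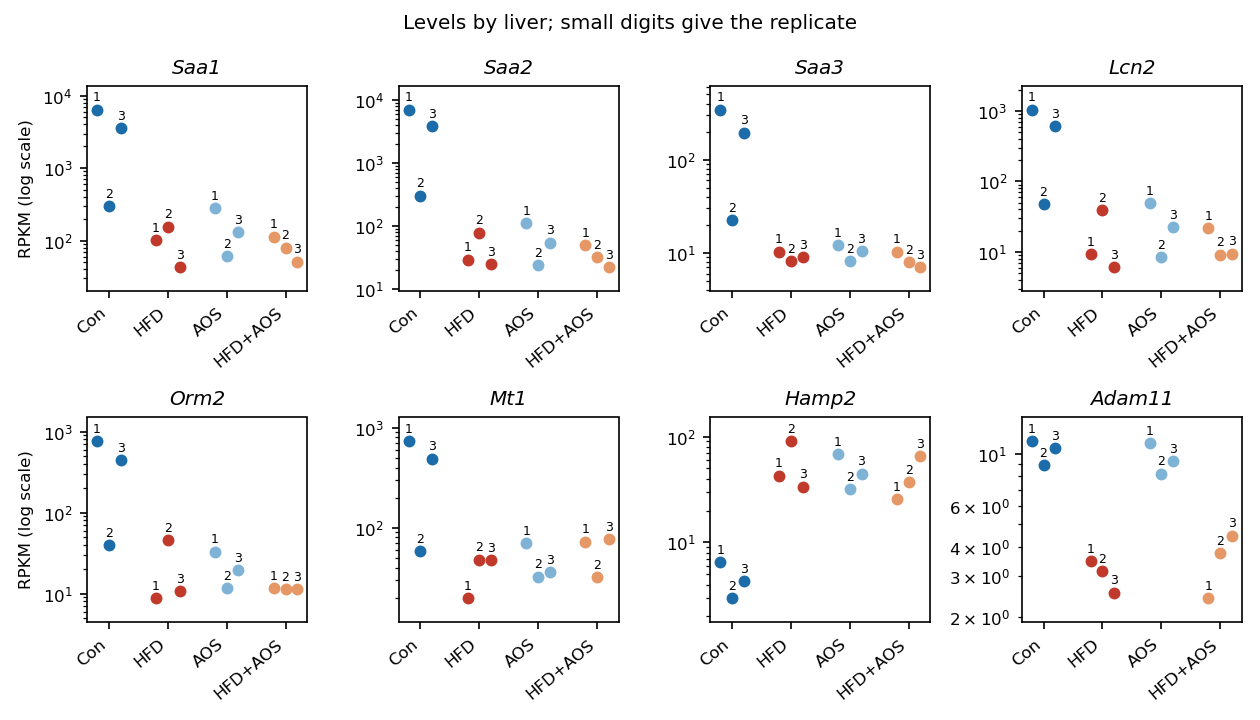
RPKM of 8 genes by liver on log axes, grouped as Con, HFD, AOS and HFD+AOS, with the replicate number above each point. For Saa1, Saa2, Saa3, Lcn2, Orm2 and Mt1 Con 1 and Con 3 stand apart from all other livers, while for Hamp2 the Con livers, and for Adam11 the HFD and HFD+AOS livers, are the low ones.

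Lipogenesis genes lay lower without a call. Of 20, 18 were lower and 5 did not overlap (25%, against 4.67% of all genes tested), with a median of -0.38 that was negative with either Con liver alone (-0.67 and -0.08). Scd1, which puts the double bond into stearate, was at 676.24, 815.21 and 740.04 in Con and 19.25, 177.45 and 214.98 in HFD livers. Every HFD liver was below every Con liver, with a difference of -3.01 ± 0.94 that did not pass (adjusted p = 0.155). Thrsp, which responds to thyroid hormone and carbohydrate, was at 163.76, 322.3 and 246.07 in Con and 52.02, 95.77 and 106.46 in HFD livers (adjusted p = 0.161). Srebf1 was at a mean of 44.2 ± 14.2 in Con and 43.7 ± 0.983 in HFD livers (SD, n = 3 each, adjusted p = 0.953). The 25 cholesterol synthesis genes had a median of -0.15, with 20 lower and 0 called, which became 0.09 with Con 1 alone.

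The drug-metabolising P450 genes moved in both directions, 17 higher and 23 lower of 40, with 0 called. Cyp3a11 was at 1709.56, 2584.95 and 2082.28 in Con and 234.55, 1032.59 and 1134.05 in HFD livers, and Cyp2a5 at 42.44, 152.48 and 100.33 against 9.27, 12.83 and 25.89. Cyp2e1, which is known to follow ketone bodies and fasting, was at 1754.67, 2572 and 2220.86 in Con and 3364.31, 3169.12 and 3043.77 in HFD livers. None of the 3 passed (adjusted p = 0.155, 0.177 and 0.0896), although in each the groups did not overlap. The retinoid list had 18 of 30 genes higher (62.5% of all genes tested were) and 0 called, with a median of 0.11 (0.00065 with Con 2 alone). Rbp4, the retinol carrier of plasma, was at a mean of 2506 ± 297 in Con and 2801 ± 219 in HFD livers (SD, n = 3 each, adjusted p = 0.481). Cyp26a1, which degrades retinoic acid, was lower in each HFD liver (-1.38, adjusted p = 0.176), and Retsat, retinol saturase, was higher in each (0.82, adjusted p = 0.0803). Dhrs9, a retinol dehydrogenase, was too low to be tested, at 0.11 to 0.16 in Con and 0.02 to 0.13 in HFD livers.

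Interferon-stimulated genes were higher in 20 of 22, and 10 did not overlap (45.5%, against 13.8% of all genes tested), with 0 called. Their median of 0.31 was 0.38 with Con 2 and 0.34 with Con 1 as the only Con liver, and their summed RPKM overlapped (363.38 to 392.87 in Con, 311.25 to 469.5 in HFD). The chemokine gene Cxcl10 was at 0.95, 1.24 and 0.96 in Con and 3.18, 2.44 and 1.96 in HFD livers (0.77, adjusted p = 0.206). Herpud1, of the degradation pathway of the endoplasmic reticulum, was at 68.8, 79.52 and 74.97 in Con and 124.17, 124.14 and 133.81 in HFD livers (0.77 ± 0.16, adjusted p = 0.0517).

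Markers of other liver cells were examined as lists. All 12 Kupffer cell and macrophage markers tested were lower in the mean, with 0 called and a median of -0.35 that became -0.0038 with Con 2 alone, and the summed RPKM overlapped (135.68 to 205.86 in Con, 96.32 to 222.22 in HFD). Of 13 stellate cell and matrix genes 10 were higher, with 0 called and a summed RPKM of 121.96 to 160.87 in Con and 163.94 to 190.3 in HFD livers. In whole tissue, fewer cells of a type and less RNA per cell cannot be told apart.

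The same change of diet was measured with AOS in livers that share none of these 6 libraries. There 572 genes passed (5.44%), 264 of them higher in HFD+AOS than in AOS livers (2.51%) and 308 lower (2.93%). Of the 31 genes higher in HFD, 27 had the same sign with AOS, 24 did not overlap and 11 passed in the same direction, beside 54.0% of all genes with the same sign and 11.6% without overlap in that direction. Of the 9 lower genes, 8 had the same sign, 2 did not overlap (17.1% of all genes in that direction) and 2 passed. The 13 genes called in both were 32.5% of the 40 and 2.27% of the 572. The libraries were separate, but the fit took the spread of each gene from all groups, AOS and HFD+AOS included. The calls between HFD and Con therefore favoured genes with little spread in the livers with AOS. Such genes reach a gap or a pass there more easily, so the shares of all genes are no fair baseline for these counts. How much this added was not tested.

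Adam11 was the gene called lower in both with the larger fall, at 11.08, 8.22 and 9.28 in AOS and 2.41, 3.75 and 4.47 in HFD+AOS livers (-1.23 ± 0.19, adjusted p = 0.00139). Its 6 livers on the high-fat diet were all below its 6 on the regular diet. Npc1 (0.71), Bdh1 (0.66), Nox4 (0.89), Acad10 (0.59) and Slc27a2 (0.52) rose with AOS too, and Cpt1a passed there (0.82, adjusted p = 0.00149). Saa2 was at 110.2, 23.71 and 53.95 in AOS livers, below each Con liver, and its diet difference with AOS was -0.66 (adjusted p = 0.705).

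The difference between the diet effects was tested in its own right, and passed for 53 genes (0.504%), among them Hamp2 and Angptl4 of the 40. Hamp2 was at 67.87, 31.78 and 44.72 in AOS and 25.64, 37.25 and 65.55 in HFD+AOS livers, so that the diet difference with AOS was -0.20. Angptl4 was at 45.08, 46.09 and 45.34 in AOS and 33.06, 36.51 and 42.2 in HFD+AOS livers (-0.29). For both, the Con livers were lower than those of the other 3 groups. Crot, which rose by 0.93 without AOS, was at -0.01 with it, but the difference did not pass (adjusted p = 0.108).

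**Figure D5:**
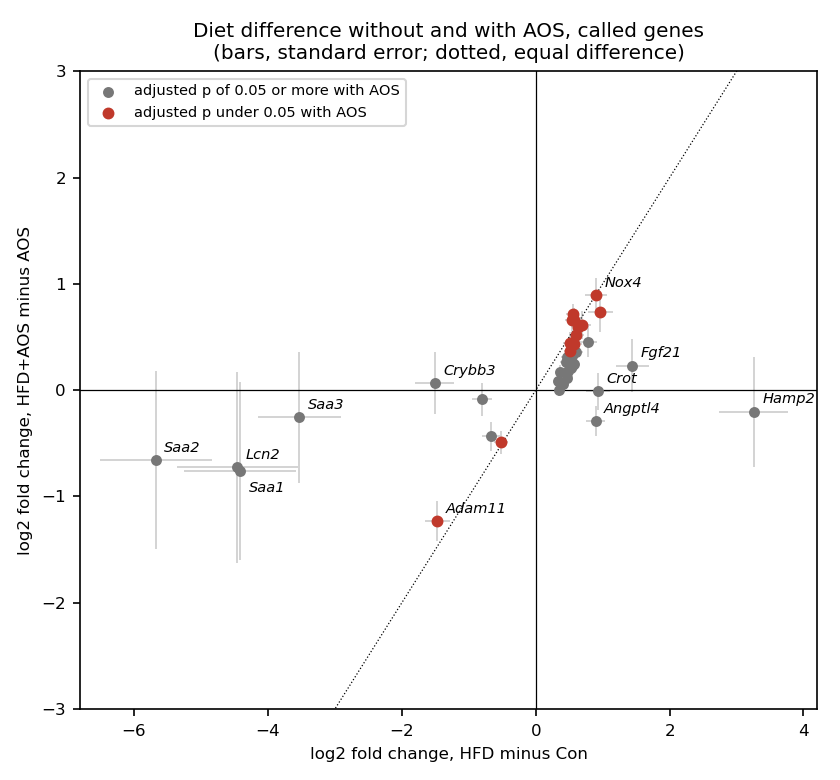
Log2 fold change of HFD against Con (x axis) and of HFD+AOS against AOS (y axis) for the 40 genes called between HFD and Con, with standard errors as bars, genes that passed with AOS in red and a dotted line of equal difference. Adam11 and Nox4 lie near the line, while Hamp2, Angptl4, Crot and the Saa genes lie between -0.76 and -0.01 on the y axis.

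Clock genes differed between the livers with AOS. The transcription factor gene Dbp, a clock output that cycles strongly in liver, was at 0.58 to 0.68 in Con and 0.27 to 0.59 in HFD livers, at 3.41, 0.36 and 1.78 in AOS and at 111.84, 88.9 and 97.76 in HFD+AOS livers. Arntl, the clock activator also called Bmal1, was at a mean of 11.7 ± 1.44 in Con and 13.3 ± 1.27 in HFD livers (SD, n = 3 each), and at 1.18, 1.23 and 1.32 in HFD+AOS livers. The HFD and Con livers overlapped in both genes, and the HFD+AOS livers stood apart from every other liver of the 4 groups. Not all clock genes overlapped between HFD and Con livers, although 0 were called. Of 6 genes of the Bmal1 phase, 2 were higher without overlap (33.3%, against 13.8% of all genes tested) and 1 lower (16.7%, against 4.67%). Of 12 clock repressors and PAR bZIP genes, 2 were higher at limma's unadjusted p under 0.05 (11.6% of all genes tested were). In that list 1 gene was lower without overlap (8.33%). The 12 clock repressors and PAR bZIP genes summed to an RPKM of 286.59 to 326.01 in HFD+AOS livers, and to 39.01 to 78.9 in Con and 46.15 to 73.9 in HFD livers. Outside the 4 groups, the livers of mice given microbiota of AOS-dosed donors were also high, at 214.09 to 371.79. The share of the 572 calls that moves with the clock genes was not tested.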

How the data were processed

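Liver RNA of 18 mice, 3 in each of 6 groups, was sequenced. According to the paper's methods the authors mapped reads to reference genes with SOAPaligner and converted read numbers to RPKM, and they deposited a table of RPKM values for 19057 lines of gene symbols whose header does not name the unit. The submitters' processing notes name Bowtie 0.12.2 and mm10 without a role, and annotation and strandedness are not given in the sources used here. The alignment setting reports every hit of a read, so reads of near-identical genes may count for more than 1 gene. Absolute depth is unknown. The relative worth of 1 read, from 82 sparsely read genes, differed by ratios of 0.977 to 1.03 between libraries. DEGseq, which the authors used, needs read numbers and was not run.

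Groups were taken from the labels. Genes were kept if 3 or more of the 18 libraries had an RPKM of 1 or more (10507 of 17109 above 0 in any). Their log2(RPKM + 1) was fitted in R 4.3.3 by limma 3.58.1 with a mean per group over all 18 livers (lmFit, then eBayes with a trend, two-sided). The Benjamini-Hochberg adjustment of p ran over all genes tested, with calls at an adjusted p under 0.05. A single gene compared by an exact permutation test of 3 against 3 livers could not go below p = 0.1, so none was run. The comparisons were HFD with Con, HFD+AOS with AOS, and the difference of these. Alternatives were equal library medians, a pseudocount of 0.1, no filter, the compared groups only, the replicate number as a block, no trend, each library left out, the third Con and AOS libraries left out and the study's cut-offs. Either Con liver as the only one was added after the data were seen. The fit was tested on simulated data.

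Members, 40 lists and 13 marker lists were chosen with earlier results of these data known. A list is described by its counts and median, beside those of all genes tested. Genes were named if called, if among the 15 largest changes in a direction at an unadjusted p under 0.05, if among the 5 smallest p of a list, if called in the difference of the diet effects, or if on a fixed list, and a few genes that the rule covers are not reported here. Places are from GENCODE M21 (GRCm38) and promoter sequences from RefSeq GRCm38.p6, both matched by symbol (Biopython 1.88), and a 35-base word was shared if it also stood in another transcript of the gene's family. Tables and figures used Python 3.11.15, numpy 2.4.6, pandas 2.3.3 and matplotlib 3.10.9.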

Additional observations from a re-analysis of the deposited data

Results flagged for a closer look

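Of the 53 genes whose diet difference with AOS differed from that without AOS by limma's test of the difference (adjusted p under 0.05), the 6 with values in the text are given here. Each value is the first minus the second on the log2 scale. Among the genes called between HFD and Con these were Hamp2 (-3.46 ± 0.73, SE, adjusted p = 0.0468), with Con livers at an RPKM of 2.96 to 6.5 and the 9 livers of the other 3 groups at 25.64 to 90.49, and Angptl4 (-1.18 ± 0.20, adjusted p = 0.00906), with Con livers at 17.31 to 25.04 and the others at 33.06 to 46.09. The 4 others were clock genes and a gene known to cycle in liver. Dbp differed by 5.45 ± 0.72 (adjusted p = 0.00137), Ciart, a clock repressor, by 3.26 ± 0.28 (adjusted p = 5.11e-05), Arntl by -2.70 ± 0.31 (adjusted p = 0.000698) and Chka, choline kinase alpha, by -2.03 ± 0.20 (adjusted p = 0.000109). None of these 4 was called between HFD and Con. Ciart was at 0.35 to 0.45 in Con and 0.05 to 0.2 in HFD livers, without overlap. In each of the 4 all 3 HFD+AOS livers stood apart from the other 9 livers of the 4 groups. The groups hold 3 livers each, too few to test a single liver as an outlier.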

How the results depend on the processing

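The count of 40 genes called between HFD and Con depended on which Con libraries entered. It was 0 without the third Con and AOS livers, 0 with Con 2 and 159 (123 higher, 36 lower) with Con 1 as the only Con liver, and 0 by the study's cut-offs on the adjusted p and fold change. Leaving out 1 library at a time gave 0 to 178 calls (0 to 126 higher, 0 to 52 lower), with 0 for Con 1 or Con 3. With no filter 26 were called (17 higher), with only the compared groups 2 (1 higher, 1 lower), and with equal medians 47, of which 23 were lower and 29 shared with the 40. The replicate numbers did not pair the livers (correlations of -0.0283, 0.00527 and -0.0894), and with the number as a block 5 genes were called (2 higher, 3 lower). The 572 calls of the diet difference with AOS became 161 (72 higher, 89 lower) without the third livers, 26 (11 higher, 15 lower) by the study's cut-offs and 240 to 459 (102 to 242 higher, 138 to 311 lower) without 1 library, and 427 were higher with equal medians. The 53 calls for the difference of effects became 15 without the third livers, 137 with only the compared groups and 29 to 186 without 1 library. Of 1515 recomputed values of 101 named genes 6 changed sign, all of genes not called: Cyp7a1 (-0.99 to 0.42 over the livers left out, the latter without HFD 1), Nr1h4 (-0.014) and Alb (-0.12) with Con 2 alone, and Srebf1 (-0.017 with equal medians, -0.21 without Con 1 in a range of -0.21 to 0.26 over the livers left out, -0.41 with Con 2 alone). Leaving livers out could not change the sign of a called gene, since none of these had overlapping groups. List medians changed sign under some alternative in 19 of 40 lists, and in 25 with either Con liver alone included. Beyond fewer livers in the settings that leave some out, the cause was not tested. The depth of the libraries is unknown, so no limit can be given for low values.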

Other observations

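Further groups were measured that carry no call. Of 78 cytosolic ribosomal protein genes 71 were lower in HFD livers, with a median log2 fold change of -0.15 (0.05 with Con 1 and -0.34 with Con 2 as the only Con liver), and of 77 respiratory chain and ATP synthase genes 54 were lower, with a median of -0.10 (0.082 with Con 1 alone). Of 32 glucose and glycogen genes 19 were higher (median 0.04), of 21 genes of the insulin, growth hormone and IGF axis 18 were higher (median 0.13), and of 47 genes of amino acid catabolism and the urea cycle 31 were higher (median 0.08), beside 62.5% of all genes tested and a median of 0.05.

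Several other genes had large differences that did not pass in the main fit. Nnmt, nicotinamide N-methyltransferase, was at an RPKM of 42.5, 1.76 and 22.92 in Con and 0.49, 0.57 and 0.56 in HFD livers (-3.21, limma adjusted p = 0.0856), so that Con 1 and Con 3 were far above and Con 2 nearer to the HFD livers. Raet1d, a ligand of the receptor NKG2D, was lower in each HFD liver (-2.0, adjusted p = 0.077) and kept its difference with Con 2 alone (-2.42). Cck, cholecystokinin, Cib3 and Bcl6, a transcriptional repressor, were higher in each HFD liver, by 1.52, 1.5 and 1.4 (adjusted p = 0.0896, 0.0896 and 0.105), and Apoa4, an apolipoprotein of fat absorption, by 1.13 (adjusted p = 0.124).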
